A study of Mus musculus with 12 samples.

Results

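The transcripts of 10 genes of the ETS family of transcription factors were followed, chosen by name for their links to ERK signalling, out of the 47729 genes in the tables. They are 3 of the PEA3 subfamily (Etv1, Etv4 and Etv5) and 7 others (Ets1, Ets2, Elk1, Elk3, Etv6, Ehf and Elf3). The cells were 6 mouse liver cancer lines, all labelled BRAFV600E; p53 KO. The design text gives mice with BRAFV600E in hepatocytes and either Trp53 or Cdkn2a deleted. Primary tumours yielded T1, T2 and T3, and lymph node metastases yielded M1, M2 and M3. From every line, cells kept for 48 h in serum-containing medium with either DMSO as solvent or 2 µM PLX4720, which inhibits mutant BRAF, were sequenced once. The 4 groups therefore hold 3 lines each, the DMSO groups carry the same alleles as the treated ones, and no library from normal liver or from cells without BRAFV600E was analysed here. How Cre was delivered, the age of the mice, and whether a line is 1 clone are not given in the sources used here. One number recurs in the table names of T3, M2 and M3, so it is not known whether these 3 lines are independent. P-values measure the spread between lines, which may share animals.

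ETS factors share a winged helix-turn-helix domain that binds DNA around a GGAA core, and many of them are phosphorylated by ERK, the last kinase of the RAS, RAF and MEK cascade. The PEA3 genes are also transcriptional outputs of that cascade: the repressor Capicua sits on their promoters and enhancers, and ERK signalling removes it. BRAFV600E keeps the cascade active without a growth factor, which is why PEA3 transcripts are widely used as readouts of BRAF and MEK inhibitors.

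Between 31992512 and 39288748 fragments were counted per library. The PLX4720 library of T3 had the highest mitochondrial share, 3.67%, against 0.189% to 0.712% elsewhere. The labels give the cells as hepatocellular carcinoma, and the markers bore this out only in part. Of 8 hepatocyte markers, 2 (Apob and Hnf4a) were above 1 CPM (library-scaled counts), in every primary DMSO library, and the list summed to 778 to 1465 CPM there. In metastasis DMSO libraries the same list summed to 0.208 to 1.94 CPM, with Alb, Ttr, Cps1, Serpina1a and Tat at 0 fragments. The 9 markers of simple epithelium summed to 5235 to 7576 CPM in primary and 1.22 to 17.8 CPM in metastasis DMSO libraries. Of these 9, 5 were above 1 CPM in every primary DMSO library. Esrp1 and Cldn4 were at 0 in metastasis DMSO libraries but were low in primary ones too. There Cldn4 ran from 0.0278 to 0.132 CPM, and Esrp1 stood at 0.0557 in T1, 0.0789 in T2 and 2.22 in T3. The 7 markers of fibroblasts and stellate cells went the other way, from 1.89 to 11.3 CPM in primary to 539 to 3122 CPM in metastasis DMSO libraries. Leukocyte markers summed to at most 10.9 CPM in any library.

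PLX4720 against DMSO asks which of the ETS transcripts respond to BRAF inhibition. Over all 6 lines, PLX4720 lowered 2 of the 3 PEA3 genes several-fold: Etv4 was 4.43-fold and Etv5 3.71-fold lower, each in 6 of 6 lines. Elk3, a partner of serum response factor, fell by a smaller amount, and none of Ets1, Ets2, Elk1 and Etv6 passed the threshold, though Ets2 did without M2. Of the 10 genes 3 were lower and 1, Elf3, was higher (edgeR quasi-likelihood test, adjusted p under 0.05). Among all 16555 genes tested 12.7% were lower and 14.5% higher by the same rule, 27.2% together. Calls that were also below -1 on the log2 scale, as those of Etv4 and Etv5 were, made up 1.52% of all genes. In bulk RNA, fewer cells of a type and less RNA per cell cannot be told apart.

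**Figure D1:**
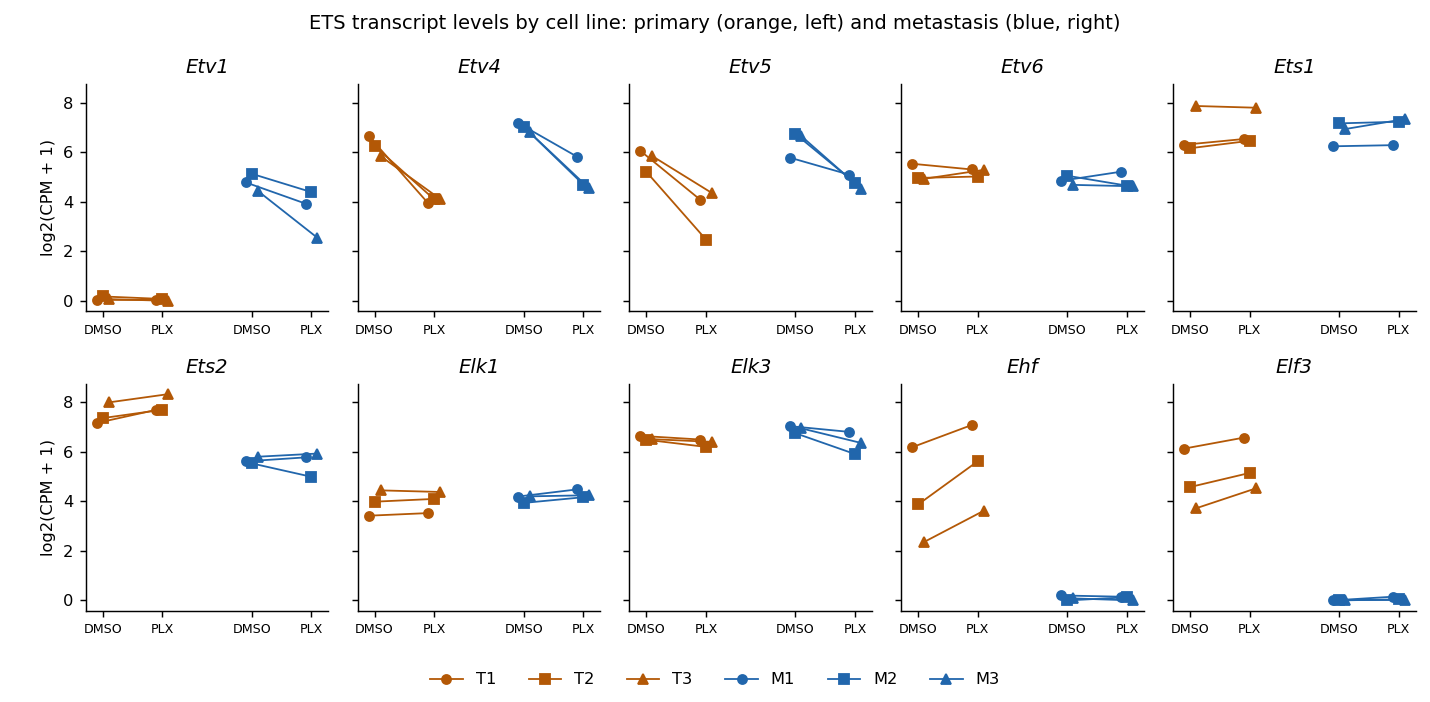
Level of each of the 10 genes as log2(CPM + 1) under DMSO and PLX4720, with the 2 points of a line joined (primary lines orange on the left, metastasis lines blue on the right). Etv4 and Etv5 sit lower with PLX4720 at both sites, Etv1 is near 0 in primary lines, and Ehf and Elf3 are near 0 in metastasis lines.

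Promoter sequences of 7 of the 10 genes were found in a RefSeq table of the GRCm38.p6 build, in 9 windows of 300 bases. Those of Etv1 and Etv5, PEA3 genes that fell with PLX4720 in metastasis lines, are shown with that of Etv6, which did not pass the threshold in any comparison. Each run is the 250 bases before a RefSeq start site, 5′ to 3′ on the gene's strand, outside annotated exons. Those of Etv1 and Etv5 lie inside the annotated span of the gene, downstream of its 5′ end. The run of Etv6 lies upstream of its gene. Capitals mark octamers of the Capicua consensus on either strand: TGAATGAA, TGAATGAG, TGAATGGA, TGAATGGG, TCAATGAA, TCAATGAG, TCAATGGA and TCAATGGG. These 8 were chosen after the Etv5 window had been read.

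Etv1, chr12:38779832-38780081, plus strand: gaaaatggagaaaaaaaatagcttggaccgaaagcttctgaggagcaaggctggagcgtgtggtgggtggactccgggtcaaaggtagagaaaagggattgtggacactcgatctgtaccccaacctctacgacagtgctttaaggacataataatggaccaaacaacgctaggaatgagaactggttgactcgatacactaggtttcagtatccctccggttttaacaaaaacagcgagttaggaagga

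Etv5, chr16:22438369-22438618, minus strand: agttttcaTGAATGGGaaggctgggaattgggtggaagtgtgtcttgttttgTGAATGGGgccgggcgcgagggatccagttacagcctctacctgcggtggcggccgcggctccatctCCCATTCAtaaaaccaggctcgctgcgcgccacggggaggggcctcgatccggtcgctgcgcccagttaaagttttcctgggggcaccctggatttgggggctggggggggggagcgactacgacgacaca

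Etv6, chr6:134035450-134035699, plus strand: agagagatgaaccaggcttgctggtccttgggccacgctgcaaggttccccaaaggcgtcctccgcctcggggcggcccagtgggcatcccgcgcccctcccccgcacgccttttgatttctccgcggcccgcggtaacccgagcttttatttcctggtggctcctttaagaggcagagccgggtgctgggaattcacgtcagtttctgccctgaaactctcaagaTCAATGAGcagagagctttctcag

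The Etv5 window shown held 3 of the octamers, all TGAATGGG: their first bases lie at -242 and -198 on the gene's strand, and the one at -131 is on the opposite strand and reads CCCATTCA here. Among 32851 windows of 300 bases, 7.02% held at least 1 of the 8 octamers and 26 windows, or 0.0792%, held at least 3. Since the 8 were chosen after the Etv5 window had been read, these shares cannot show that its matches are unusual. The Etv6 window held 1, TCAATGAG at -24, and the Etv1 window shown held none. Etv5 and Etv1 each have a second RefSeq start site, at 22439570 and 38783711, and neither of those windows held an octamer. The most cited pair, TGAATGAA and TGAATGGA, was in none of the 9 windows and in 1.30% and 1.21% of all. The GGAA core, searched on both strands, was found 5 times in the Etv1 window and 6 times each in those of Etv5 and Etv6, but 0 times at the second Etv5 and 1 time at the second Etv1 start site, and 96.0% of all windows held it. CCGGAAGT, the fuller ETS consensus, and TGANTCA, the AP-1 site, were in none of the 9 windows, against 3.89% and 7.81% of all. A match describes the letters in a window, and binding was not measured.

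Etv4 (ENSMUSG00000017724; GRCm38 chromosome 11, 101769742 to 101785371, minus strand) encodes PEA3, the founding member of its subfamily. In primary lines its level went from 99.6 to 14.3 CPM in T1, from 74.9 to 16.1 in T2 and from 56.3 to 16.2 in T3. In metastasis lines it went from 144 to 55.1 CPM in M1, from 129 to 24.9 in M2 and from 110 to 22.1 in M3. DMSO and PLX4720 levels did not overlap at either site, and M1 kept the highest level under the inhibitor. The fitted log2 change was -2.15 ± 0.16 over all lines (SE; edgeR adjusted p = 0.000124). It was -2.27 ± 0.23 in primary lines (4.83-fold lower, edgeR adjusted p = 0.00318) and -2.02 ± 0.23 in metastasis lines (4.06-fold lower, adjusted p = 0.000539). Its change over all lines ranked 75 from the lowest among 16555 genes.

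Etv5 (ENSMUSG00000013089; chromosome 16, 22381309 to 22439719, minus strand), also called ERM, acts beside Etv4 as an ERK-induced activator. With PLX4720 it went from 65.2 to 16.0 CPM in T1, from 35.9 to 4.55 in T2 and from 56.2 to 19.4 in T3. The metastasis lines went from 54.0 to 33.1 CPM in M1, from 105 to 26.0 in M2 and from 98.9 to 22.0 in M3. Again the treatments did not overlap within a site, and the smallest change was that of M1. The fitted log2 change was -1.89 ± 0.23 over all lines (edgeR adjusted p = 0.000793), -2.14 ± 0.32 in primary lines (4.42-fold lower, adjusted p = 0.0100) and -1.64 ± 0.32 in metastasis lines (3.11-fold lower, adjusted p = 0.00760). Without T1 the primary value missed the threshold (-2.20, edgeR adjusted p = 0.0692), as did the metastasis value without M2 (-1.45, adjusted p = 0.0515).

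Etv1 (ENSMUSG00000004151; chromosome 12, 38779380 to 38868215, plus strand), or ER81, is the PEA3 member known as a driver in gastrointestinal stromal tumours and melanoma. It was a metastasis-line transcript here, with 26.4 CPM in M1, 33.9 in M2 and 20.6 in M3 under DMSO. With PLX4720 these lines stood at 14.2, 19.9 and 4.83 CPM. The levels of the treatments did not overlap, and M3 had the largest change. Etv1 was 2.34-fold lower in metastasis lines (log2 change -1.23 ± 0.25, edgeR adjusted p = 0.00966). The primary lines gave 8 fragments in all under DMSO and 3 with PLX4720, too few for a change to be detectable at this depth (ratio 0.379, 95% exact interval 0.0648 to 1.58, counting error only). The value over all 6 lines did not pass (edgeR adjusted p = 0.138).

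**Figure D2:**
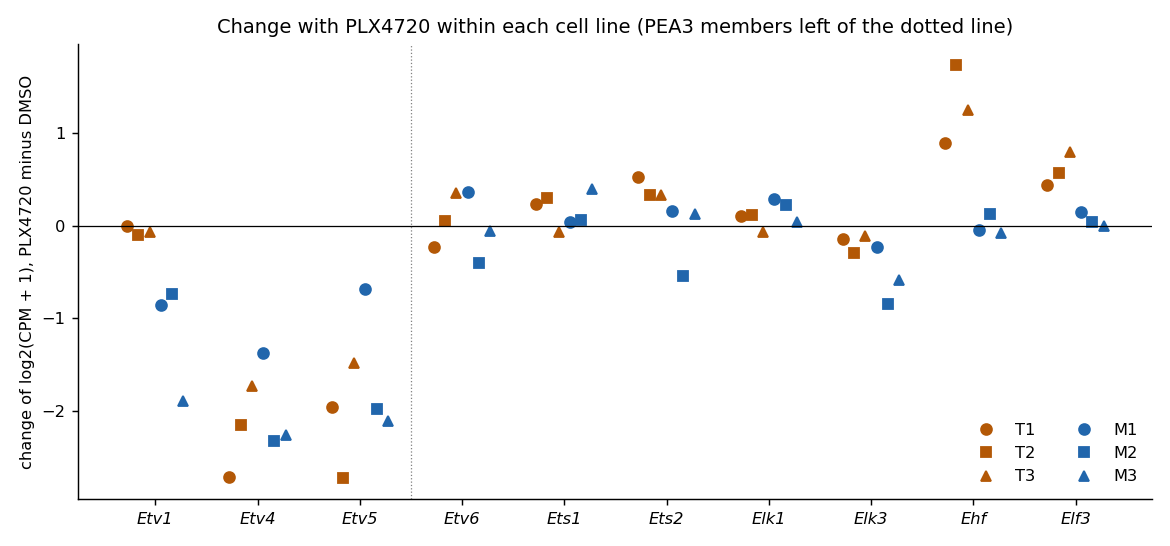
Change with PLX4720 in each line, as the difference of log2(CPM + 1) between PLX4720 and DMSO, for the 10 genes, with 1 point per line. All 6 points of Etv4 and Etv5 lie below 0, from -2.72 to -1.37 for Etv4 and from -2.73 to -0.69 for Etv5.

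Per length, the PEA3 transcripts made up a smaller part of the ETS pool with PLX4720 at both sites. The summed level of Etv1, Etv4 and Etv5, in CPM per kilobase of exon, was 31.8 to 48.0 in primary DMSO libraries and 6.29 to 9.95 with PLX4720. Metastasis libraries went from 63.1 to 73.0 under DMSO to 13.3 to 28.2 with PLX4720. With the inhibitor, the PEA3 sum was 17.7% of its DMSO level in T1, 19.1% in T2, 31.3% in T3, 44.0% in M1, 24.3% in M2 and 21.1% in M3. Every line thus kept less than its DMSO sum, with M1 keeping most and T3 next. The sum of the 7 other genes was 116% to 130% of its DMSO level in the primary and 76.6% to 98.9% in the metastasis lines. As a share of the summed CPM per kilobase of all 27 ETS genes, PEA3 transcripts made up 13.4% to 18.7% in primary and 28.3% to 34.9% in metastasis DMSO libraries. With PLX4720 the share was 3.00% to 4.16% in primary and 7.82% to 18.2% in metastasis libraries, so treatments did not overlap at either site. Etv4 was the largest part of the PEA3 sum in each of the 12 libraries, at 56.3% to 73.4% of it under DMSO. Etv1 added 5.55% to 19.1% of the sum in metastasis libraries and at most 0.147% in primary ones.

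**Figure D3:**
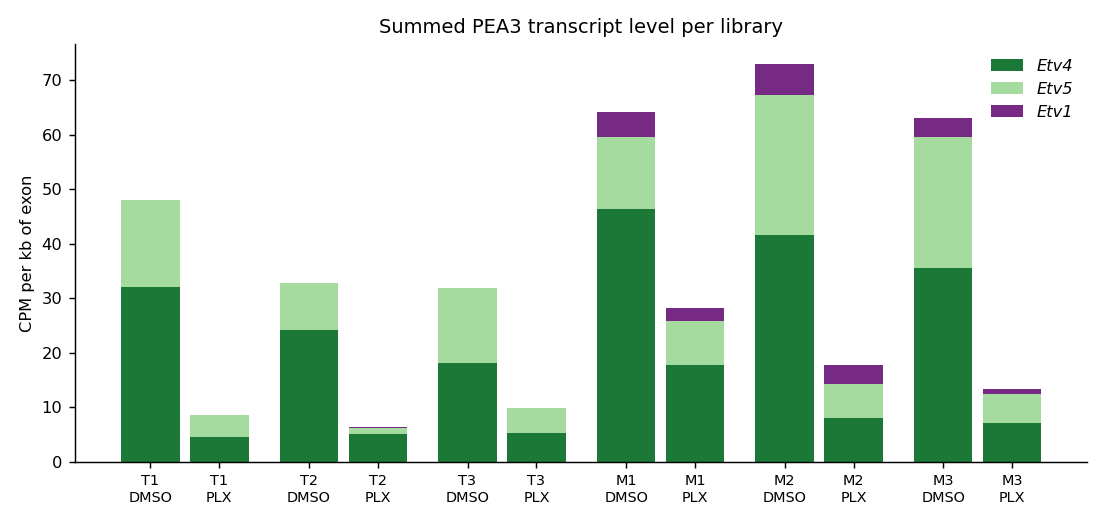
Summed level of Etv1, Etv4 and Etv5 in each of the 12 libraries, in CPM per kilobase of exon, with each bar split by gene. PLX4720 bars are shorter than DMSO bars in all 6 lines, and the Etv1 segment is visible only in metastasis lines.

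The order of the 10 genes per length changed with treatment. In primary DMSO libraries Ets2 led at 39.5 ± 12.5 CPM per kilobase, then Etv4 at 24.8 ± 7.00 and Elk3 at 20.3 ± 1.22 (mean ± SD, n = 3 lines), and the ranges of these neighbours overlapped. With PLX4720 Ets2 still led there, at 51.7 ± 13.9, above the range of the next gene, and Etv4 had rank 7 of 10 at 5.00 ± 0.349. In metastasis DMSO libraries Etv4 led at 41.2 ± 5.49, above the range of Elk3 at 26.2 ± 2.64, while Etv5 at 21.0 ± 6.81 overlapped with Elk3. With PLX4720 Elk3 (18.3 ± 5.68), Ets1 (15.2 ± 5.33), Etv4 (11.0 ± 5.89) and Ets2 (10.2 ± 3.25) came first, each overlapping with its neighbour.

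Elk1 and Elk3 are ternary complex factors, which bind DNA together with serum response factor and are phosphorylated by ERK. Elk3 (ENSMUSG00000008398; chromosome 10, 93247414 to 93311135, minus strand), also called Net, represses its targets until ERK phosphorylates it. It went from 98.6 to 89.0 CPM in T1, from 88.4 to 72.1 in T2 and from 89.8 to 83.3 in T3. It went from 130 to 110 CPM in M1, from 106 to 58.8 in M2 and from 122 to 80.7 in M3. Elk3 was lower in 6 of 6 lines, while the levels of the treatments overlapped at both sites: M1 with PLX4720 stood above M2 with DMSO, for example. The log2 change was -0.37 ± 0.08 over all lines (edgeR adjusted p = 0.0110) and -0.56 ± 0.12 in metastasis lines (1.47-fold lower, adjusted p = 0.0101). In primary lines it was -0.18 ± 0.11 and did not pass (edgeR adjusted p = 0.350). Without M2 and M3 together the value over the remaining lines missed the threshold (-0.22, edgeR adjusted p = 0.0834), an alternative chosen after seeing the data. Elk1 (ENSMUSG00000009406; chromosome X, 20933395 to 20950608, minus strand), an activator, ran from 9.68 to 21.3 CPM over the 12 libraries and did not pass (0.13 ± 0.08, edgeR adjusted p = 0.271).

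Counting Etv1 with its few fragments in primary lines, 4 of the 10 genes (Etv1, Etv4, Etv5 and Elk3) were lower in all 6 lines and 0 were higher in all 6. Among all genes tested 12.8% were lower and 12.7% higher in every line.

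Ets1 and Ets2 carry a pointed domain and a threonine that ERK phosphorylates, which raises their activity as activators. Ets2 (ENSMUSG00000022895; chromosome 16, 95702075 to 95721051, plus strand) stood at 142, 163 and 253 CPM under DMSO and 205, 206 and 319 with PLX4720 in T1, T2 and T3. In M1, M2 and M3 it stood at 47.9, 45.1 and 54.6 CPM under DMSO and 53.6, 30.7 and 59.7 with PLX4720. It was higher in each primary line and lower only in M2 among the metastasis lines. The fitted log2 change was 0.40 ± 0.13 in primary lines (edgeR adjusted p = 0.0993) and -0.08 ± 0.14 in metastasis lines (adjusted p = 0.719). With the primary libraries fitted alone Ets2 passed there (0.40, edgeR adjusted p = 0.0178), as it did without M2 (0.42, adjusted p = 0.0288). Over all 6 lines its change was 0.16 ± 0.10 (edgeR adjusted p = 0.254), but 0.28 without M2 (adjusted p = 0.0267) and 0.27 without M2 and M3 (adjusted p = 0.0495). Ets1 (ENSMUSG00000032035; chromosome 9, 32636221 to 32757820, plus strand) ranged from 70.3 to 160 CPM in 10 libraries and stood at 232 and 221 CPM in T3. Its change was 0.16 ± 0.07 (edgeR adjusted p = 0.139), with an interval of -0.0061 to 0.33.

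Etv6 (ENSMUSG00000030199; chromosome 6, 134035700 to 134270158, plus strand), or TEL, is a repressor that ERK phosphorylates. It ran from 23.6 to 45.2 CPM over the 12 libraries, was higher with PLX4720 in 3 lines and lower in 3, and had a fitted log2 change of 0.02 ± 0.12 (95% interval -0.24 to 0.28, edgeR adjusted p = 0.943).

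Ehf and Elf3 belong to the epithelial branch of the family, which helps to maintain epithelial differentiation. Ehf (ENSMUSG00000012350; chromosome 2, 103263433 to 103303278, minus strand) was higher with PLX4720 in each primary line, going from 71.5 to 134 CPM in T1, from 13.7 to 48.1 in T2 and from 4.13 to 11.3 in T3. Elf3 (ENSMUSG00000003051; chromosome 1, 135253575 to 135258568, minus strand) moved likewise, from 68.7 to 93.8 CPM in T1, from 22.8 to 34.3 in T2 and from 12.1 to 21.9 in T3. Both were highest in T1 and lowest in T3 under either treatment, so the groups overlap while each line moved up. In primary lines Ehf was 2.60-fold higher (log2 change 1.38 ± 0.22, edgeR adjusted p = 0.0131) and Elf3 1.54-fold higher (0.63 ± 0.12, adjusted p = 0.0324). Leaving out T1, T2 or T3 ended both calls, with edgeR adjusted p = 0.0692, 0.0794 and 0.0529 for Ehf and 0.191, 0.134 and 0.120 for Elf3. The changes in these fits were 1.65, 1.17 and 1.37 for Ehf and 0.73, 0.66 and 0.54 for Elf3, while the number of genes called went from 1362 to 91, 210 and 340. Metastasis lines gave 7 fragments of Ehf under each treatment. For Elf3 they gave 0 fragments under DMSO and 5 with PLX4720, 4 of them in M1. The call of Elf3 over all 6 lines (edgeR adjusted p = 0.0284) takes in that step from 0 to 5 fragments, and DESeq2 did not make it (adjusted p = 0.0698). It was also lost without T1, T2, M1 or M2 (edgeR adjusted p = 0.0550, 0.0556, 0.335 and 0.0544). Ehf over all 6 lines did not pass (edgeR adjusted p = 0.404).

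By site, 2 of the 10 genes were lower and 2 higher in primary lines, where 3.77% and 4.46% of all genes were called, 8.23% together. In metastasis lines 4 were lower and 0 higher, where 8.36% and 12.0% of all genes were called, 20.4% together (edgeR). The edgeR unadjusted p was under 0.05 for 1 higher gene there, Elf3 on its 5 fragments, and DESeq2 called 0 higher. Calls that were also below -1 on the log2 scale made up 0.900% of all genes in primary and 2.69% in metastasis lines. Etv4 and Etv5 were among these calls at both sites. The 4 genes lower in metastasis lines were the 3 PEA3 genes and Elk3.

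A gene called at 1 site and not at the other is not shown to differ between them, so the difference of the PLX4720 effect, metastasis minus primary, was tested itself. None of the 10 genes passed (edgeR), 3 had an unadjusted p under 0.05 (Ets2, Elk3 and Elf3), and DESeq2 called 0. Of all genes 2.94% were called, 1.85% higher and 1.09% lower. For Etv4 the difference was 0.25 ± 0.31 with a 95% interval of -0.46 to 0.96 (edgeR adjusted p = 0.821), and for Etv5 it was 0.51 ± 0.44 with an interval of -0.50 to 1.51 (adjusted p = 0.703). Those of Ets2 (-0.49 ± 0.19, edgeR adjusted p = 0.274) and Elk3 (-0.38 ± 0.16, adjusted p = 0.326) had intervals of -0.92 to -0.05 and -0.74 to -0.0080.

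**Figure D4:**
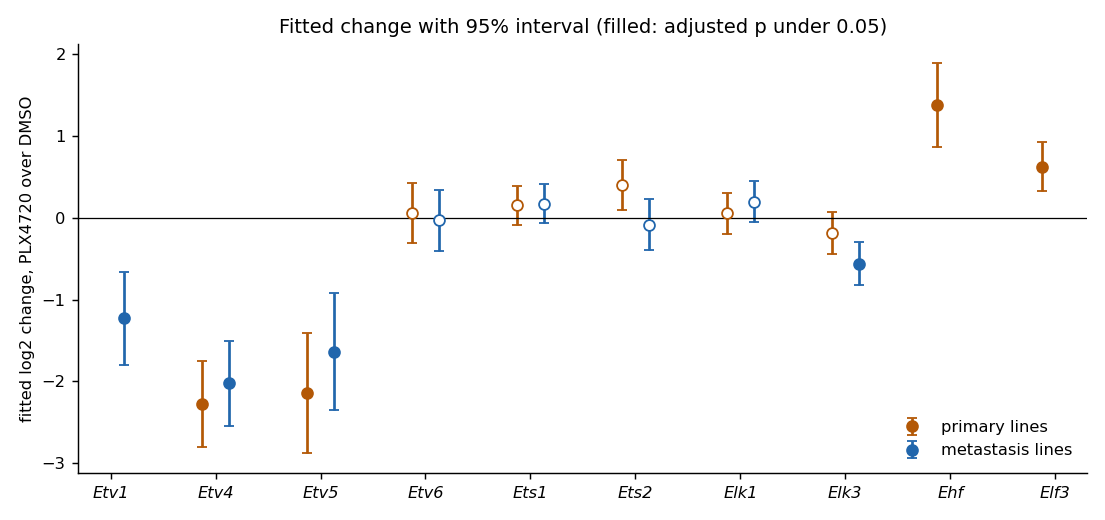
Fitted log2 change with 95% interval in primary and metastasis lines, as PLX4720 against DMSO, with filled points where the adjusted p is under 0.05. Etv1 in primary lines and Ehf and Elf3 in metastasis lines are left out for few fragments. Etv4 is at -2.27 and -2.02 and Etv5 at -2.14 and -1.64, while the intervals of Ets1, Elk1 and Etv6 include 0 at both sites.

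Metastasis against primary lines asks how the ETS repertoire differs with the origin of the line. Under DMSO the metastasis lines had Etv1, which the primary lines nearly lacked, and nearly lacked Ehf and Elf3. Ets2 was also lower. Of the 10 genes 1 was higher and 3 lower, against 4.64% and 7.49%, or 12.1% together, of 14992 genes tested (edgeR). Levels of 3 genes (Etv1, Etv4 and Elk3) lay wholly above and those of 3 (Ets2, Ehf and Elf3) wholly below the primary ones, as did 15.3% and 17.9% of all genes.

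Etv1 gave 2736 fragments over the metastasis DMSO libraries and 8 over the primary ones, a ratio of scaled counts of 383 (95% exact interval 194 to 887, counting error only; edgeR adjusted p = 0.00131). Ehf gave 3254 fragments in primary and 7 in metastasis DMSO libraries, a ratio of 416 (edgeR adjusted p = 0.0175). Without M2 or M3 this call was lost (edgeR adjusted p = 0.0626 and 0.0699). Elf3 gave 3819 fragments in primary and 0 in metastasis DMSO libraries. Set against a floor of 3 fragments over the group, Elf3 was at least 1138-fold lower in metastasis lines, and the lower end of the exact 95% interval, which allows more fragments at a count of 0, was 925 (edgeR adjusted p = 0.0104). Ets2 was 3.75-fold lower, at 49.2 ± 4.88 against 186 ± 59.0 CPM (mean ± SD, n = 3 lines each; log2 difference -1.91 ± 0.26 (SE), edgeR adjusted p = 0.00783).

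Etv4 was higher in each metastasis than in any primary line under DMSO, at 128 ± 17.0 against 76.9 ± 21.7 CPM, but did not pass (0.75 ± 0.25, edgeR adjusted p = 0.112). Etv5 differed by 0.72 ± 0.34 (adjusted p = 0.237) with overlap of M1 and the primary lines. Elk3 differed by 0.38 ± 0.16 without overlap (edgeR adjusted p = 0.193). In simulated data this fit called only 4% of true log2 differences of 1. The simulation changed fewer genes than were called here, and gave each gene the spread typical of its level. That share is therefore not the power for Etv4, Etv5 or Elk3. A missing call does not show that their levels were equal. Ets1, Elk1 and Etv6 overlapped between the sites, at edgeR adjusted p = 0.885, 0.869 and 0.537.

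With PLX4720 the same 4 genes passed, 1 higher and 3 lower, against 5.62% and 7.88%, or 13.5% together, of 15276 genes. The comparison used the other 6 libraries of the same lines. Etv1 gave 1341 fragments in metastasis and 3 in primary libraries (ratio 484, interval 165 to 2348; edgeR adjusted p = 0.00496). Ehf gave 7323 fragments in primary against 7 in metastasis libraries (ratio 967, edgeR adjusted p = 0.00749), and Elf3 5671 against 5 (ratio 1048, adjusted p = 0.00375). Ets2 was 4.99-fold lower in metastasis lines (-2.32 ± 0.33, edgeR adjusted p = 0.00771). Etv4 and Etv5 lay wholly above the primary levels without passing (1.15 ± 0.39 and 1.04 ± 0.53, edgeR adjusted p = 0.107 and 0.267). With Etv1 they made 3 genes wholly above, and Ets2, Ehf and Elf3 were wholly below, against 16.6% and 18.1% of all genes.

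The marker lists moved with these differences. Simple epithelium markers, high where Ehf and Elf3 were high, summed to 5640 to 7999 CPM in primary and 4.09 to 13.2 CPM in metastasis libraries with PLX4720. Fibroblast and stellate markers, high where Etv1 was high, summed to 1.88 to 28.0 CPM in primary and 2194 to 9022 CPM in metastasis libraries with PLX4720. The match held between sites and not within them. Among primary DMSO libraries Ehf and Elf3 were highest in T1 and lowest in T3. The epithelium sum there was lowest in T1 (5235 CPM) and highest in T3 (7576 CPM). Grhl2, on the same list, was low at both sites, at 0.184 to 0.476 CPM under DMSO. It was not called by site under DMSO (0.48, edgeR adjusted p = 0.543). With PLX4720 it was called lower in metastasis lines (-2.52, edgeR adjusted p = 0.0346). With PLX4720, the fibroblast and stellate markers Col1a1, Col1a2 and Pdgfrb rose in metastasis lines, where Etv1 fell. Their log2 changes were 4.14, 1.71 and 1.66, with edgeR adjusted p-values of 0.000124, 0.00222 and 0.000497. Pdgfra, Dcn and Thy1, on the same list, were not called there (0.26, 0.13 and 0.18, edgeR adjusted p = 0.304, 0.740 and 0.740). Of the biliary markers there, Krt7, which had few fragments under DMSO, was called higher (edgeR adjusted p = 0.000343), Krt19 rose by 1.02 (adjusted p = 0.00716), and Spp1 had a change of -1.76 (adjusted p = 0.00207). In primary lines Pdgfra rose by 1.20 and Spp1 had a change of -1.29 (edgeR adjusted p = 0.0258 and 0.0220). The part of cell state in the ETS differences, by site or with PLX4720, was not tested.

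**Figure D5:**
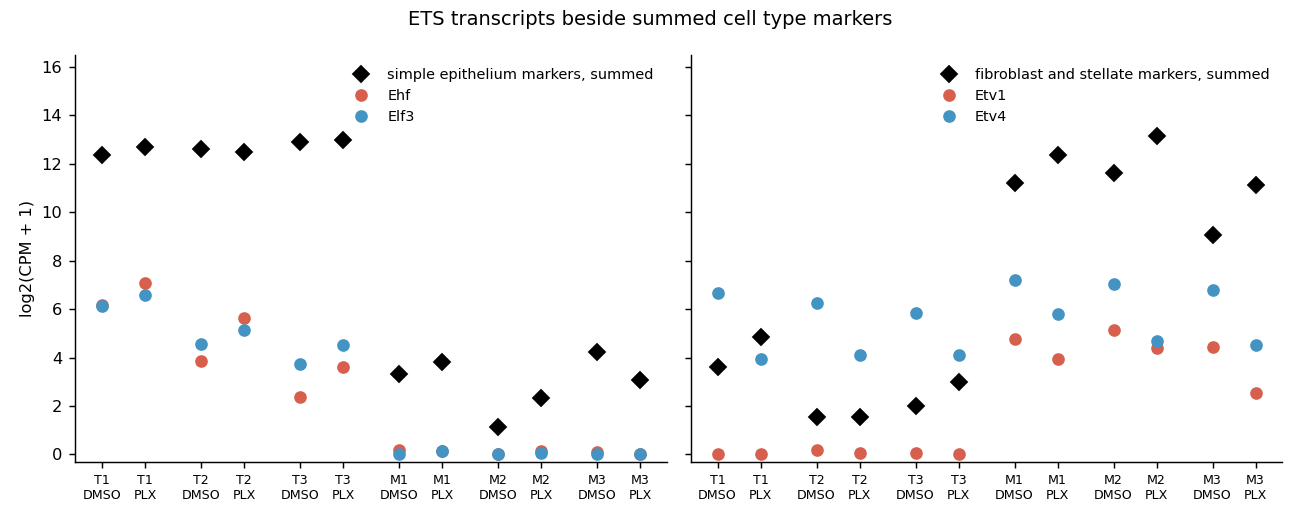
Summed level of simple epithelium markers with Ehf and Elf3 (left), and of fibroblast and stellate markers with Etv1 and Etv4 (right), as log2(CPM + 1) in each of the 12 libraries. Epithelium markers, Ehf and Elf3 are high in the 6 primary libraries, and fibroblast and stellate markers and Etv1 in the 6 metastasis libraries.

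The rest of the family gave no call in edgeR. Of 17 further ETS genes 8 were tested in the treatment fit (Fli1, Gabpa, Etv3, Erf, Elk4, Elf1, Elf2 and Elf4), 7 of them, without Fli1, were tested between sites, and 0 passed in any comparison. Over all 6 lines the edgeR unadjusted p was under 0.05 for 2 of them, Elf1 and Elf4, both higher, and DESeq2 called 1 higher. It was under 0.05 for 1, Fli1, in primary lines and for the difference of effects, where DESeq2 called 0, and for 0 in metastasis lines, where DESeq2 called 0 too. In each comparison of sites it was under 0.05 for 1, Elf4, and DESeq2 called 1 lower. The median change of the 8 over all lines was 0.04, that of all genes tested 0.03, that of the 3 PEA3 genes -1.89 and that of the 7 others 0.16. Elf4, an activator also called MEF, is named after its values were seen. It had a change of 0.51 ± 0.17 with PLX4720 over all lines (edgeR adjusted p = 0.0579). In metastasis lines it was wholly below the primary levels, by -1.33 ± 0.39 under DMSO (edgeR adjusted p = 0.0810) and -1.35 ± 0.40 with PLX4720 (adjusted p = 0.0743). Fli1, an endothelial and blood cell factor, also named after its values were seen, had a fitted change of -1.28 in primary lines (edgeR adjusted p = 0.0859) and a difference of effects of 1.63 (adjusted p = 0.319). It was nearly confined to T1 among primary lines, at 449 fragments under DMSO and 209 with PLX4720. T1 also had the highest sum of endothelial markers, 74.8 CPM under DMSO and 36.9 with PLX4720, of which Tek alone made 69.5 and 35.1 CPM. Cdh5 was also highest in T1, at 4.59 CPM under DMSO against 0.0526 in T2 and 0.579 in T3. It stood at 1.25 CPM in T1 with PLX4720 and was called lower in primary lines (-1.69, edgeR adjusted p = 0.0422). The other markers did not follow: Pecam1 was lowest in T1 among primary DMSO libraries, Kdr was higher in T3 than in T1, and Tie1 was at 0 in T1. Erg, a defining endothelial ETS gene, was at 0 in all primary libraries. The part of endothelial cells in the level of Fli1 was not tested.

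Feedback and other output genes of the cascade were read beside the ETS genes from a list of 20 ERK output genes. Over all 6 lines 12 fell and 4 rose, with a median change of -0.59 (edgeR), where 12.7% of all genes were called lower and 14.5% higher. The ERK phosphatase Dusp6 fell by 1.43 on the log2 scale (SE 0.15, edgeR adjusted p = 0.000404), and Spred3, Spred1 and the receptor Epha2 fell as well. Those that rose were the feedback inhibitor Spry1 (0.55 ± 0.07), the ephrin receptor Epha4 (1.13 ± 0.25) and the immediate early genes Egr1 (1.62 ± 0.49) and Fos (1.09 ± 0.35), at edgeR adjusted p = 0.00114, 0.0110, 0.0371 and 0.0480. Spry1 rose in every line, but Epha4 had changes of -0.30 in T2 and -0.29 in T3. Fos did not rise in T1 and T2 (-0.0084 and -0.075), and Egr1 changed little in T1 and M3 (0.0055 and 0.031). Egr1 and Fos are known targets of the ternary complex factors as well as of ERK. In primary lines 5 fell and 0 rose (3.77% and 4.46% of all genes), with 1 higher gene at an unadjusted p under 0.05 and 0 called higher by DESeq2. In metastasis lines 10 fell and 3 rose (8.36% and 12.0% of all genes). The median change of the 20 genes was -0.46 in T1, -0.52 in T2, -0.36 in T3, 0.07 in M1, -1.12 in M2 and -0.76 in M3. M1 was the only line with a median above 0, and 10 of its 20 genes were lower. The genes did not move alike in M1: Dusp6 and Spred3 had changes of -1.23 and -1.38, Egr1 and Fos of 2.82 and 2.86. M1 was also the line with the smallest changes of Etv4 and Etv5, -1.37 and -0.69. Etv1, by contrast, changed least among metastasis lines in M2, by -0.74 against -0.85 in M1.

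Regulators of ETS factors that passed the threshold all rose. Of 13 such genes 8 rose and 0 fell over all 6 lines (edgeR; 0 lower at an unadjusted p under 0.05, and 0 lower by DESeq2), with a median change of 0.31, where 14.5% of all genes were called higher and 12.7% lower. Atxn1, which binds and stabilises Capicua, rose by 0.81 ± 0.07 (edgeR adjusted p = 0.000209). Cic itself, which encodes Capicua, rose by 0.37 ± 0.08 (edgeR adjusted p = 0.00954). Serum response factor, Srf, the partner of Elk1 and Elk3, rose by 0.44 ± 0.07 (edgeR adjusted p = 0.00369), and its other cofactors Mrtfb and Mrtfa rose by 0.68 ± 0.11 and 0.45 ± 0.08. In primary lines 3 rose (Cic, Atxn1 and Mrtfb) and in metastasis lines 5 did (Atxn1, Srf, Mrtfa, Mrtfb and Mapk3), with none called lower by edgeR or DESeq2, or at an unadjusted p under 0.05, at either site. Of all genes 4.46% were called higher in primary and 12.0% in metastasis lines. Cop1 and Det1, which mark PEA3 proteins for degradation, did not pass.

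Genes reported elsewhere as targets of ETS factors went in both directions. Of 20, 18 were tested over all 6 lines, of which 5 fell and 2 rose, with a median of -0.08, where 12.7% of all genes were called lower and 14.5% higher. Spp1, which encodes osteopontin and is also a biliary marker, had a log2 change of -1.52 ± 0.18 and fell (edgeR adjusted p = 0.000759). The stromelysin gene Mmp3 fell by 1.88 (edgeR adjusted p = 0.00741) and Timp1, a protease inhibitor, by 0.76 (adjusted p = 0.00557), both on the log2 scale. Plaur and Ccnd1, which also stand on the ERK output list, fell too. Mmp14, a membrane protease, rose by 0.62 ± 0.06 (edgeR adjusted p = 0.000300) and the receptor gene Erbb2 by 0.43 ± 0.10 (adjusted p = 0.0122). In primary lines 1 rose (Mmp14) and 1 fell (Spp1), where 4.46% and 3.77% of all genes were called. In metastasis lines 3 rose and 6 fell, where 12.0% and 8.36% were called.

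Genes whose pattern over the 12 libraries lay nearest to that of an ETS gene were ranked among 11470 genes by the root mean square difference of log2(CPM + 1), each gene centred on its own mean. The chromatin protein genes Hmga1 and Hmga2 were nearest to Etv4, at 0.53 and 0.56, followed by Etv5 at 0.60, Spred3 and Plk3. Nearest to Etv5 were Hmga2 at 0.57, Etv4 at 0.60, Plk3, Spry4 and Zfp52. Both patterns therefore had Hmga2, Plk3 and each other among the nearest 5. Foxl1, at 0.25, was nearest to Etv1, then Adamts14, Layn, Cplx2 and Nr2f1. For Ehf the nearest were Mmp24 at 0.50, Fgfr4, Elf3 at 0.54, Wnt4 and Cdx2. For Elf3 they were Cdx2 at 0.33, Unc13b, Sp5, Tmprss2 and Bcam. These distances describe 12 libraries of 6 lines, and those of Etv1, Ehf and Elf3 mostly follow the site of the line.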

How the data were processed

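Per the labels' protocols, the 12 libraries were made from total RNA with a stranded kit that depletes ribosomal RNA. Per the file headers, the authors counted fragments over the exons of Ensembl release 84 genes with featureCounts 1.5.2 and deposited raw counts. The submitters' processing notes name GRCm38 as the build. No strand option is recorded in the headers, so genes that overlap on opposite strands may share fragments. An aligner is not named in the sources used here. Symbols were found for 47224 of 47729 gene identifiers.

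Counts were fitted with edgeR 4.0.16 under R 4.3.3 (filterByExpr, TMM, quasi-likelihood test, Benjamini-Hochberg adjustment over all genes tested, threshold 0.05). The PLX4720 model took all 12 libraries and 16555 genes, had a coefficient for every line and a PLX4720 coefficient for each site, and over all lines averaged the latter. Sites were compared on the 6 libraries of each treatment. Every fit left 4 residual degrees of freedom. The SE was derived from the F statistic and is approximate for genes with few fragments. CPM used TMM-scaled library sizes, lengths were the exon lengths in the tables, and changes per line are of log2(CPM + 1). Both libraries of a line are paired by the line's name in the labels, and their deviations from their group's mean had a correlation of 0.839 to 0.923. Replicate numbers do not pair the sites (-0.0982 to 0.0120). Chi-square per degree of freedom was at least 127 between libraries of a group, so none was counted as a duplicate. Intervals of ratios are exact, at 95%, and cover counting error only, since reads carry no molecular identifiers.

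The genes, lists and rules were chosen with earlier results of these data known. The 10 genes are always named, and from other lists up to 4 members with the smallest p per comparison, beside members named to account for a count or a role after their values were seen. Fragments of near-identical copies follow the authors' settings. The fits were tested on simulated data. Those between sites recovered 4% (DMSO) and 3% (PLX4720) of true log2 changes of 1, and 51% and 45% of changes of 2. Recovery of changes of 1 was 100% over all lines, 96% at each site and 74% for the difference of effects. False calls made up 1.48% to 6.78% of calls. Alternatives were library totals, no low-count filter, DESeq2 1.42.0, a pseudocount of 0.25, fits by site, the block, and each line left out.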

Additional observations from a re-analysis of the deposited data

How the results depend on the processing

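Etv4, Etv5 and Elk3 stayed lower over all 6 lines with library totals, without the low-count filter, with DESeq2 and with any 1 line left out. The fit without the block ended the calls of Etv5 (-1.82, edgeR adjusted p = 0.105) and Elk3 (-0.35, adjusted p = 0.517), and leaving out M2 and M3 together that of Elk3. With no replicate block, that is without pairing by line, 18 genes passed over all 6 lines (1 of the 10 lower, Etv4, and 0 higher), 1 in primary lines (0 lower and 0 higher of the 10), 15 in metastasis lines (0 lower of the 10) and 0 for the difference of effects. DESeq2 called 0 of the 10 higher over all lines, and 920 genes for the difference of effects, 2974 between sites under DMSO and 3163 with PLX4720. Without the low-count filter 2052 genes passed in primary lines and 996 for the difference. Fitted alone, the primary libraries gave 2491 genes and the metastasis libraries 2195. A replicate block by number, which the data do not bear out as pairing, gave 1106 genes between sites under DMSO and changed no call of the 10 genes, though Ets1 turned to 0.016 under DMSO and 0.043 with PLX4720. The causes of these shifts were not tested, apart from those built into a fit (fewer genes or samples).

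With lines left out, counts of all genes ran from 2417 (without T1) to 4384 over all lines, from 91 (without T1) to 2252 (without M1) in primary lines, from 1891 (without M2) to 3090 in metastasis lines and from 122 (without T2) to 798 (without M1) for the difference of effects. Between sites they ran from 901 (without M2) to 1595 under DMSO and from 1097 (without M2) to 1712 with PLX4720. Of the 10 genes, 0 to 1 were higher and 3 lower over all lines (2 lower without M2 and M3), 1 to 2 lower and 0 to 3 higher in primary lines, 3 to 4 lower in metastasis lines, and 2 to 3 lower between sites under DMSO.

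Values that changed sign belong to genes that did not pass. With lines left out, Etv6 ran from -0.087 to 0.21 over all lines, from -0.068 to 0.23 in primary and from -0.24 to 0.14 in metastasis lines. In metastasis lines Ets2 ran from -0.22 to 0.13 and Ehf, on few fragments, from -0.92 to 0.54. The difference of effects ran from -0.34 to 0.41 for Etv1, from -0.14 to 0.081 for Ets1, from -0.074 to 0.45 for Etv4 and from -0.30 to 0.060 for Etv6. With library totals it was -0.0019 for Etv1 and -0.040 for Ets1. Between sites, Elk1 ran from -0.10 to 0.44 and Ets1 from -0.43 to 0.64 under DMSO, and with PLX4720 Elk3 ran from -0.22 to 0.25 (-0.055 with library totals) and Ets1 from -0.29 to 0.56. Depth limits Etv1 in primary lines and Ehf and Elf3 in metastasis lines, where a few fragments set the values.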
